A study of Nasonia vitripennis with 23 samples.

Results

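The odorant receptors of *Nasonia vitripennis* with a number above 150 were described in female heads. Members were all genes of the count table whose symbol was Or followed by a number of 151 or more. There were 105 of them among 14131 genes, with numbers between 151 and 301, beside 109 odorant receptors numbered 1 to 150. All 105 had an entry of the same symbol in the RefSeq annotation of assembly Nvit_psr_1.1, and all were given there as protein-coding. A further 41 numbers above 150 were pseudogenes in that annotation, 0 of which were in the count table, and 5 numbers had neither kind of entry.

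RNA came from AsymC females, a wild-type strain free of *Wolbachia*, that had each been given a host and then honey solution before the experiment. Females oviposited for 3 h on 3 hosts, either alone (single-foundress), with 4 co-foundresses (five-foundress) or with 9 (10-foundress). The co-foundresses were of the red-eye mutant STDR strain, so that the AsymC female of each patch was known by eye colour and only its head was taken. Each library was made from a pool of 12 heads, with 8 single-foundress, 7 five-foundress and 8 10-foundress pools. Foundress number was compared because females of this wasp adjust the sex ratio of their offspring to the number of other females on the patch. Single-foundress replicate 2, which the authors removed as an outlier, was left out of all values except where it is named, so that 7, 7 and 8 libraries remained. These 22 libraries held between 25194329 and 69696501 counted reads.

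Insect odorant receptors are membrane proteins of olfactory sensory neurons, most of which sit in the antennae. Each tuned receptor forms a cation channel with a shared co-receptor, which in *Nasonia* is Or1, and it is the tuned receptor that sets which odours open the channel. The family has expanded in wasps, ants and bees, largely by duplication of neighbouring genes, and the ligands of most single receptors are not known. No role beyond this can therefore be given for any one receptor numbered above 150. Whether antennae were left on the heads is not given in the sources used here.

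Levels are given as CPM, the counts of a gene divided by the library total and set to a common total, scaled by the trimmed mean of M-values (TMM) method of edgeR. They are not divided by transcript length, because no lengths of the annotation that was used for counting were at hand. The order of the receptors is thus an order by share of reads, and not by number of transcripts.

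Nearly all the receptors were detected, as were nearly all genes. Reads were counted on 104 of the 105 in at least 1 of the 22 libraries, beside 13599 of all 14131 genes and 107 of the 109 receptors numbered 1 to 150. For 92 of the 105, reads were counted in every library, a share that is not given here for all genes. Between 96 and 103 receptors had reads in any one library, with means of 100.6 ± 2.07 in single-foundress (SD, n = 7), 100.7 ± 1.70 in five-foundress (n = 7) and 100.3 ± 1.28 in 10-foundress pools (n = 8). Or182 was the only receptor at 0, with 0 of 833936593 reads, which allows a level of up to 0.0036 CPM. Or181 had 1 read in 1 library. Or183 had 9 reads in 6 libraries, and Or299 also had 9 reads, in 7 libraries. At this depth these 4 receptors were at the limit of what could be measured. A further 9 receptors lacked reads in between 1 and 11 libraries. Of these, Or190 averaged 0.0377 CPM and Or188 averaged 0.0438 CPM, whereas Or271, which lacked reads in 1 library, averaged 0.845 CPM.

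Levels were low beside those of most genes. The median over the 104 detected receptors was 1.51 CPM, with quartiles of 0.785 and 3.23 CPM, against a median of 15.0 CPM over all 13599 genes with reads and 1.16 CPM over the 107 detected receptors numbered 1 to 150. Only 2 of the 104 lay above the median of all genes. A mean of 10 CPM or more was found for 5 receptors, a mean of 1 to 10 CPM for 62, a mean of 0.1 to 1 CPM for 32 and a mean below 0.1 CPM for 6, Or182 included. The 10 receptors with most reads took 40.4% of the summed CPM and the first 5 took 26.1%, whereas the 52 detected receptors with fewest reads took 13.4%.

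**Figure D1:**
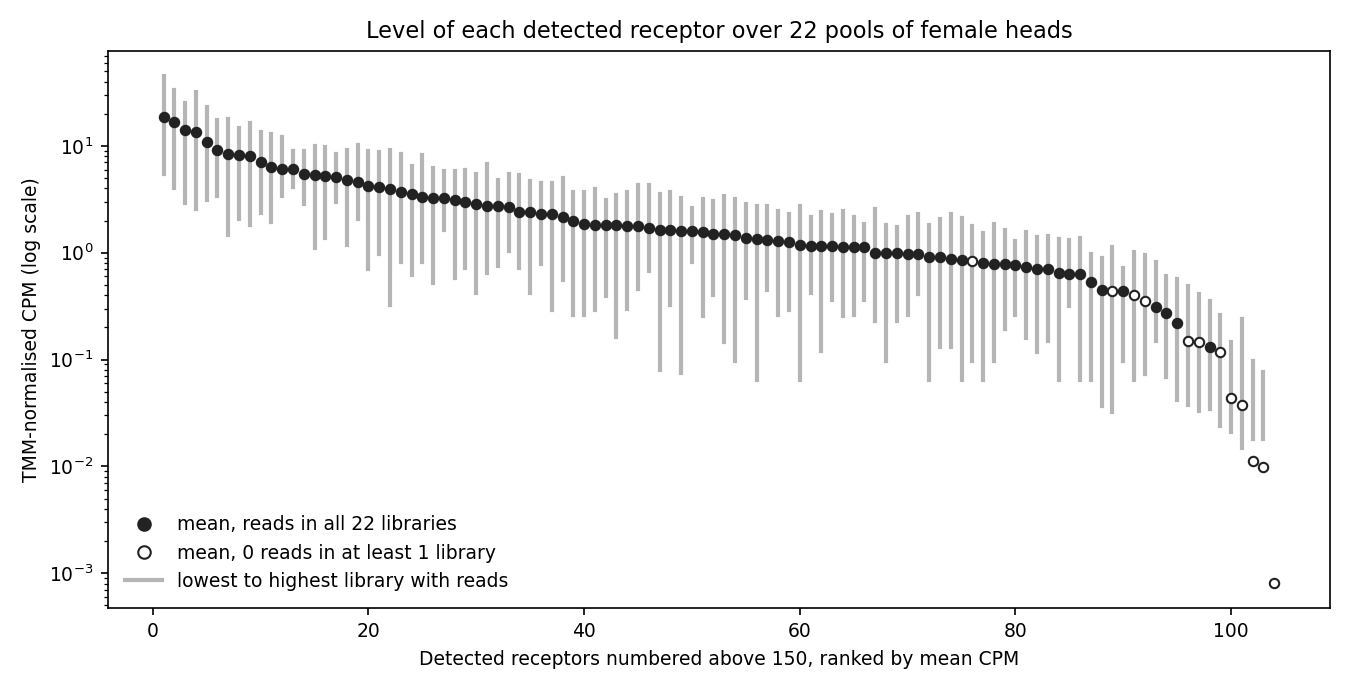
Mean TMM-normalised CPM (points, log scale) of the 104 detected receptors, ranked from the highest, with the lowest and highest library that had reads (bars) over 22 pools. Means run from 18.7 CPM for Or217 to 0.00082 CPM for Or181, open points mark receptors without reads in at least 1 library, and Or182 is not drawn.

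Or217 took most reads, with 18.7 ± 10.6 CPM (SD, n = 22) and rank 6268 among the 13599 genes. Its lowest, median and highest pools had 5.40, 18.0 and 45.0 CPM in the single-foundress group, 9.20, 12.6 and 23.8 CPM in the five-foundress group and 11.2, 15.3 and 43.4 CPM in the 10-foundress group. The 3 groups overlapped, and the lowest and the highest pool of all both belonged to the single-foundress group. Or245 followed with 16.7 ± 8.05 CPM. Its lowest, median and highest pools had 4.07, 16.5 and 33.4 CPM with a single foundress, 6.84, 12.1 and 27.2 CPM with 5 foundresses and 10.7, 15.5 and 31.4 CPM with 10. The ranges again overlapped, and that of the single-foundress group enclosed both of the others. Or243 averaged 14.1 ± 6.94 CPM, Or241 13.5 ± 7.49 CPM and Or233 10.9 ± 5.69 CPM over the same 22 pools. Or275 (9.08 ± 2.77 CPM), Or163 (8.36 ± 4.38 CPM), Or226 (8.19 ± 3.75 CPM), Or253 (7.96 ± 4.07 CPM) and Or249 (7.06 ± 3.36 CPM) made up the rest of the first 10. Means of these 10 that were next to each other in the order differed by less than the SDs. The SDs include variation that receptors shared between pools, so they do not show whether such receptors differed within pools.

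The order of the receptors was much the same in each pool. Spearman's rho between the 104 levels of one library and the mean of the others lay between 0.853 and 0.985. This is a correlation across genes, which are not independent replicates. It was lowest in single-foundress replicate 8, the pool with the lowest receptor level. Or217 had the highest level in 13 libraries and Or245 in 7. Or243 led in 10-foundress replicate 18 and Or301 in single-foundress replicate 8. Between 6 and 10 of the first 10 receptors were also among the first 10 of a single library, with 9 or more in 14 libraries.

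Many of these receptors neighbour each other in the genome. Receptors with at most 2 other genes between them in the gene order of Nvit_psr_1.1 were counted as a cluster. By this rule, 37 of the 105 fell into 3 clusters of 5 or more, 33 into 13 clusters of 2 to 4, and 35 had no other member beside them. The largest cluster ran from Or241 to Or261, with 18 receptors and 7 pseudogenes, and gave 32.3% of the summed CPM. It held Or245, Or243, Or241, Or253 and Or249, but also Or247 with 0.437 CPM, which lay 2 places from Or245. The cluster from Or271 to Or285 had 12 receptors and 4 pseudogenes and gave 11.2% of the summed CPM. There Or275, with 9.08 CPM, stood beside Or276 with 5.06 CPM, while the remaining 10 averaged between 0.845 CPM (Or271) and 3.57 CPM (Or280). In the cluster from Or218 to Or226, whose 7 receptors gave 6.09%, the 2 outermost had the highest levels, with 5.24 CPM for Or218 and 8.19 CPM for Or226, and Or225, next to Or226, had 0.150 CPM. Of the 10 receptors with most reads, 7 were in these 3 clusters. Or217 itself stood alone by this rule, and so did Or181, Or182, Or183 and Or299. Reads that could not be assigned to a single gene were not counted by the authors, so that levels of near-identical neighbours are uncertain.

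**Figure D2:**
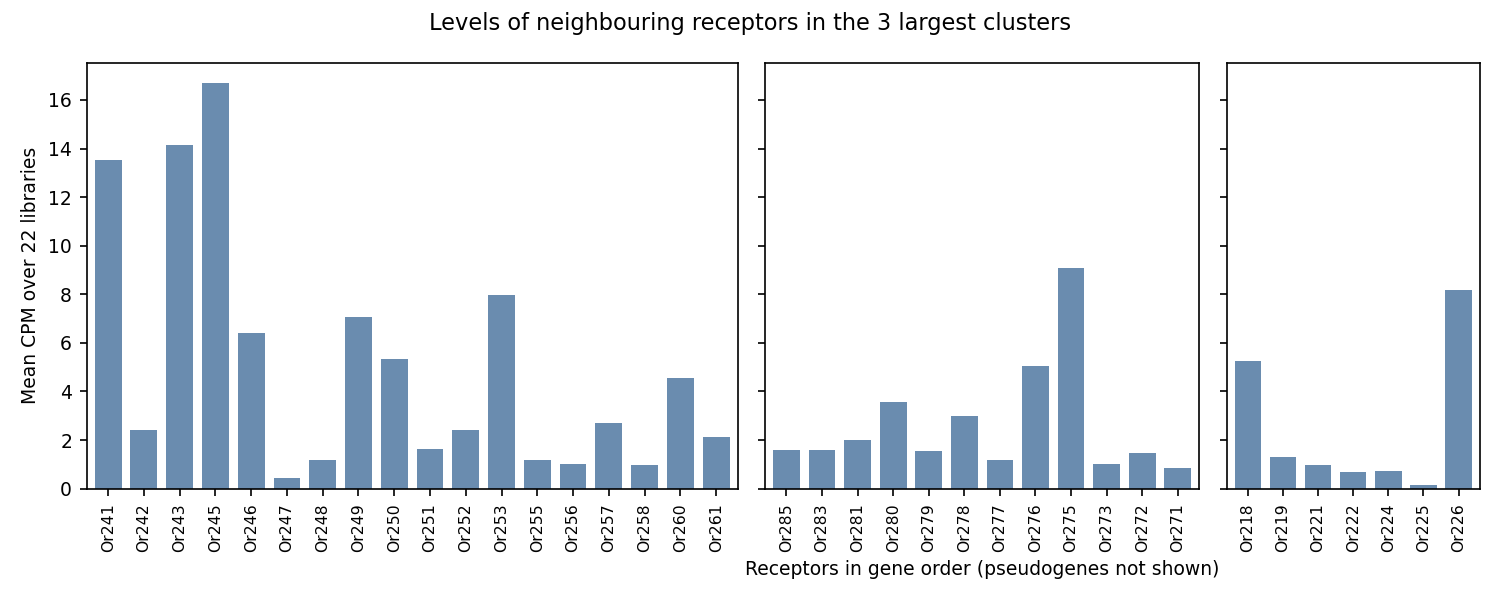
Mean CPM over 22 libraries (bars) of the receptors in the 3 largest clusters, placed in the gene order of Nvit_psr_1.1. Levels of neighbours differ, as for Or245 (16.7 CPM) and Or247 (0.437 CPM), and the highest bars are Or245, Or243 and Or241.

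The receptors as a whole differed more between pools than between foundress numbers. Their summed level was 290 ± 158 CPM in the single-foundress group (SD, n = 7), 251 ± 114 CPM in the five-foundress group (n = 7) and 308 ± 102 CPM in the 10-foundress group (n = 8). Single-foundress pools ranged from 86.1 to 519 CPM with a median of 316 CPM, five-foundress pools from 137 to 419 CPM with a median of 192 CPM, and 10-foundress pools from 198 to 489 CPM with a median of 278 CPM. The group ranges overlapped throughout, and the highest pool was 6.03 times the lowest. The mean of that group was 323 CPM when its replicate 8 was left out and 251 CPM when replicate 1 was. The 4 highest pools were single-foundress replicates 1 and 4 and 10-foundress replicates 17 and 18. The 3 lowest were single-foundress replicates 7 and 8 and five-foundress replicate 12.

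Other genes that mark sensory and nerve cells moved with this level or did not. The summed level of receptors 2 to 150 varied over almost the same range, from 56.2 to 348 CPM, and the ratio of the receptors above 150 to it stayed between 1.41 and 1.65. That ratio was 1.53 ± 0.06 in single-foundress, 1.52 ± 0.03 in five-foundress and 1.57 ± 0.05 in 10-foundress pools. Or1, the co-receptor, varied from 14.3 to 271 CPM, and the summed receptors above 150 were between 1.57 and 6.21 times its level. Odorant binding proteins carry odorants in the fluid around the neurons. Only the 3 genes with an OBP symbol were summed, which need not be the whole family, and they ranged from 10.7 to 98.4 CPM. The summed gustatory receptors (44 genes) ranged only from 17.7 to 30.3 CPM. Lop1, the long-wavelength opsin of the photoreceptors, had between 5579 and 12025 CPM, and the 12 nicotinic acetylcholine receptor subunits, which act in the brain, summed to between 441 and 833 CPM. Hexamerins, storage proteins of the fat body, summed to between 9.58 and 25.4 CPM. In bulk RNA, fewer receptor neurons in a pool and less receptor RNA per neuron cannot be told apart, and the part of pool composition in these levels was not tested.

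**Figure D3:**
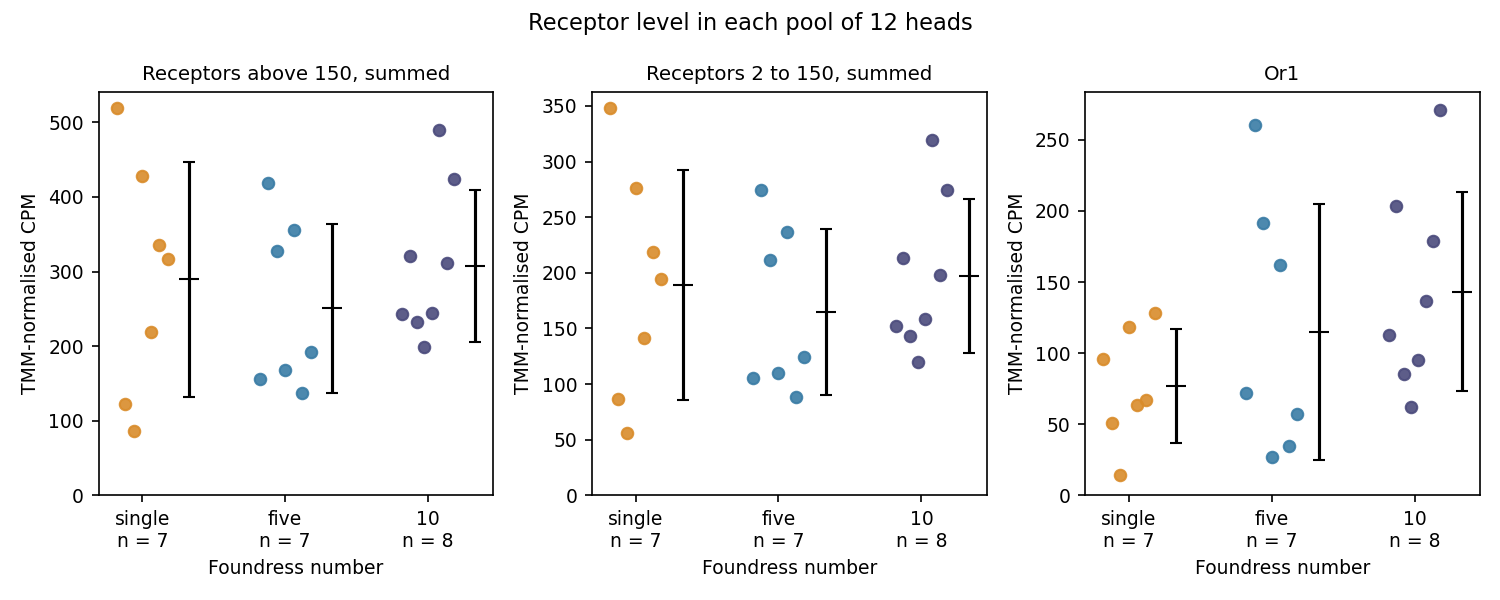
TMM-normalised CPM of each pool (points) for the summed receptors above 150, the summed receptors 2 to 150 and Or1, by foundress number, with mean ± SD beside the points (n = 7, 7 and 8). The first 2 panels have the same pattern, with single-foundress pools from 86.1 to 519 CPM enclosing those of the other groups in the first.

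Spread between pools was therefore examined for single receptors. For the 33 receptors that averaged 100 or more counts per library, the median coefficient of variation (CV, the SD as a percentage of the mean) over 22 libraries was 49.1%, against 20.4% over all 9301 genes with as many counts. It was 49.5% for the 20 receptors numbered 2 to 150 with as many counts. Counting error alone would give a median of 7.18%. The CV lay between 40 and 60% for 28 of the 33. It was highest for Or162 (57.2%), Or217 (56.6%) and Or193 (56.0%), and lay below 40% for only 5. Or301 had the lowest CV, 18.9%, followed by Or276 (24.4%), Or296 (29.9%), Or275 (30.5%) and Or289 (31.1%), the last of which was named after its values were seen.

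Most of this spread was shared. Pearson's r between the log2 CPM of each gene and the log2 summed CPM of receptors 2 to 150 was computed over the 22 libraries, for 13493 genes in all. It was 0.9 or more for 24 of the 33 receptors, as for 1.07% of the 9281 genes with at least 100 counts, and its median was 0.936. The adjusted p of r, from 100000 permutations with Benjamini-Hochberg adjustment over all 13493 relations, was below 0.05 for 32 of the 33, as for 21.1% of the 9281 genes. The points share library, depth and scaling, and the receptors are not independent measures. Within the groups, the median r of the 33 was 0.977 in single-foundress, 0.953 in five-foundress and 0.889 in 10-foundress pools. Without the 2 pools farthest from the median, single-foundress replicates 7 and 8, the median r was 0.918.

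Or217 had r = 0.96 (Spearman's rho = 0.98, adjusted permutation p = 0.000365 for r and 0.000555 for rho, 22 libraries). Both come from 1e-05, the smallest p that 100000 permutations can give. Without the same 2 pools r was 0.945, and it was 0.989, 0.973 and 0.947 within the single-, five- and 10-foundress groups. Or245 had r = 0.978 and rho = 0.972, with r = 0.974 without the 2 pools. Or241, in the same cluster as Or245, had the highest r of the 33, 0.985, with rho = 0.979.

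A few receptors did not share this pattern. Or276 had r = 0.346 and rho = 0.364, with adjusted permutation p of 0.296 and 0.301, and r = 0.131 without the 2 pools. Its r was 0.699 in single-foundress, 0.321 in five-foundress and -0.349 in 10-foundress pools. Or276 ranged only from 2.96 to 8.46 CPM over all pools, while the summed receptors 2 to 150 ranged over 6.20 times. Or301 had r = 0.584 and rho = 0.554 (adjusted permutation p of 0.0292 and 0.0534), r = 0.547 without the 2 pools and r of 0.682, 0.777 and -0.125 in single-, five- and 10-foundress pools. In single-foundress replicate 8, the pool with the lowest receptor level, Or301 was the receptor with most reads, at 5.43 CPM, just above Or217 with 5.40 CPM. Or275, the neighbour of Or276, had r = 0.612 and rho = 0.596 (adjusted permutation p of 0.0176 and 0.0327), r = 0.410 without the 2 pools and r of 0.755, 0.829 and -0.0924 in the 3 groups. Its relation to the other receptors thus did not hold within the 10-foundress group, and neither did those of Or276 and Or301. Or277 and Or278, which follow Or276 on its other side, had r of 0.826 and 0.906, and were named after their values were seen. Within the 10-foundress group their r was 0.352 and 0.678. In that group r in this cluster ran from -0.349 (Or276) to 0.882 (Or273), with 0.0172 for Or272. A low r in 10-foundress pools was thus not particular to Or275, Or276 and Or301.

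Dividing each receptor's level by the summed receptors 2 to 150 showed the same split. The median CV of the 33 fell to 22.3%, and the CV became smaller for 29 of them. For Or217 it became 16.2% and for Or218 9.79%, the lowest of all. It became larger for 4 receptors: 45.0% for Or301, 45.6% for Or276, 34.3% for Or296 and 37.1% for Or275. Or296 nevertheless had r = 0.865 and rho = 0.938 (adjusted permutation p of 0.000365 and 0.000555), r = 0.918 without the 2 pools and r of 0.817, 0.912 and 0.965 in the 3 groups, so that it moved with the other receptors but over a smaller range, from 2.84 to 8.91 CPM.

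**Figure D4:**
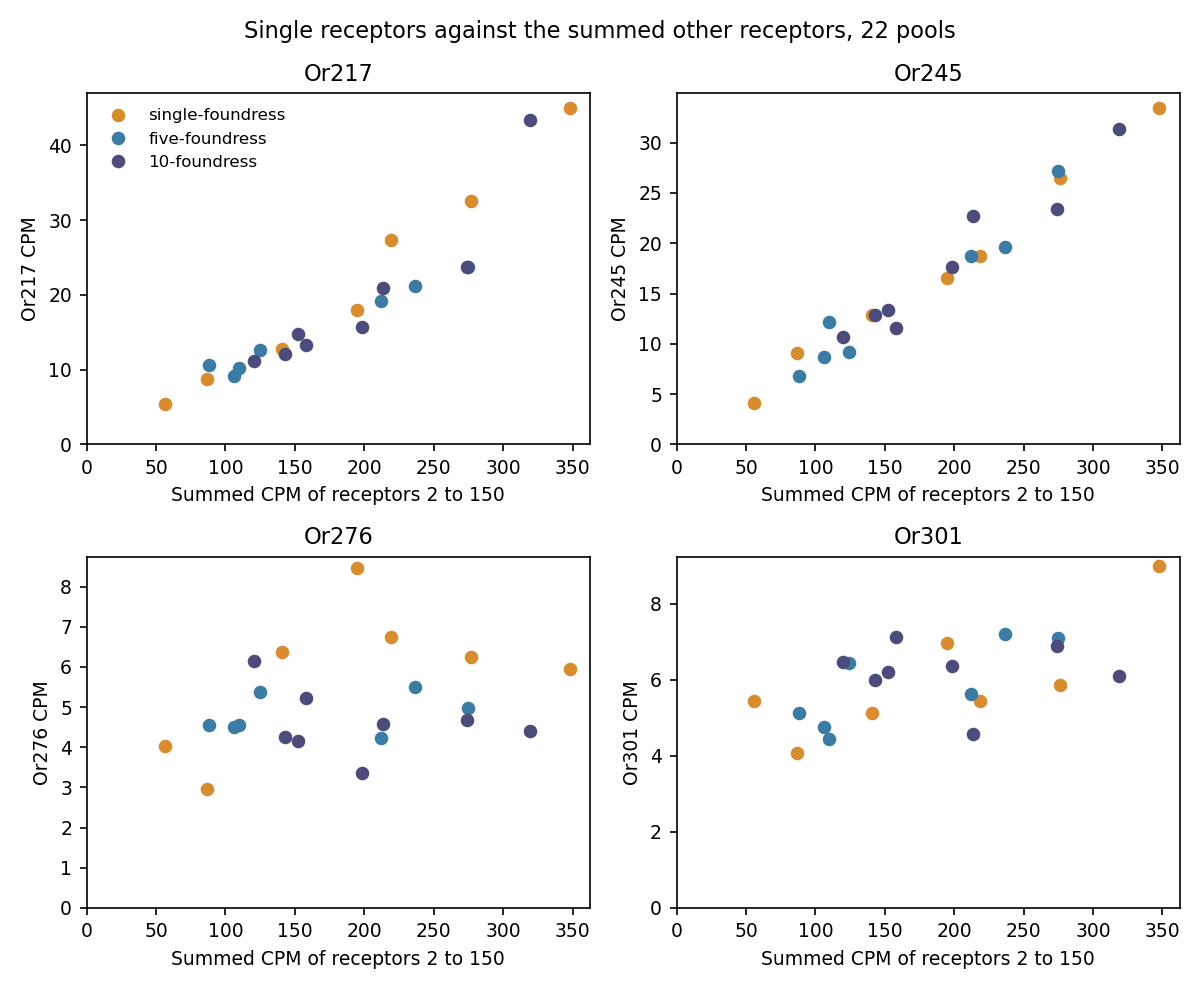
CPM of Or217, Or245, Or276 and Or301 against the summed CPM of receptors 2 to 150 in the 22 pools (points, coloured by foundress number). Or217 (r = 0.96) and Or245 (r = 0.978) rise along the axis, whereas Or276 (r = 0.346) and Or301 (r = 0.584) stay between 2.96 and 8.99 CPM, r being taken on the log2 scale.

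Or217, as the receptor with most reads, was also set against 6 properties of the pools, with p from 100000 permutations adjusted over the 6. Its r was 0.804 with the summed odorant binding proteins (rho = 0.814, adjusted permutation p of 6e-05 for r), 0.712 without the 2 pools farthest from the median of that property, and 0.848, 0.926 and 0.833 within the single-, five- and 10-foundress groups. With Or1 it was 0.680 (rho = 0.728, adjusted permutation p = 0.00114), 0.534 without 2 such pools, and 0.806, 0.894 and 0.591 within the groups. The relation to the summed nicotinic receptors was negative, with r = -0.626 (rho = -0.619, adjusted permutation p = 0.00342), -0.466 without 2 such pools, and -0.792, -0.907 and -0.155 within the groups. It thus held in the single- and five-foundress pools, but was weak among the 10-foundress pools. For library depth r was 0.291 (rho = 0.439, adjusted permutation p = 0.227), for the summed gustatory receptors 0.407 (rho = 0.309, adjusted p = 0.0869) and for Lop1 -0.0732 (rho = -0.116, adjusted p = 0.747), and these did not pass the threshold. Within the single-, five- and 10-foundress groups, r with depth was 0.462, 0.779 and -0.121. In the same order it was 0.50, 0.14 and 0.48 with the gustatory receptors and -0.073, -0.52 and 0.22 with Lop1.

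The comparison of foundress numbers asked whether any receptor changed with the number of co-foundresses. None passed the test. Of the 104 receptors tested in edgeR's quasi-likelihood fit, with Benjamini-Hochberg adjustment over all 13599 genes, 0 passed an adjusted p of 0.05 in any of the 3 pairwise comparisons or in the overall test of foundress number, and 0% of all genes did. DESeq2 and limma-voom also called 0 receptors. The 3 comparisons share samples, so that they are not independent of each other. No receptor had groups that did not overlap in any comparison, as was found for 0.0221% of all genes between five- and single-foundress pools and for 0.00735% of all genes in each of the others.

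In five- versus single-foundress pools, 0 receptors had an unadjusted p below 0.05 in edgeR, against 1.76% of all genes. The fitted level was higher in five-foundress pools for 35 receptors and lower for 69, with a median log2 fold change of -0.14, while 50.8% of all genes were higher, with a median of 0.00. Single receptors had a median standard error of 0.39 on the log2 scale where they had at least 100 counts, so that fold changes of this size were not detectable. Or276 had the smallest p, with 4.23, 4.55 and 5.505 CPM as the lowest, median and highest five-foundress pools, against 2.96, 6.25 and 8.46 CPM in single-foundress pools. Its five-foundress pools lay entirely within the range of the single-foundress pools. The log2 fold change was -0.28 ± 0.17 (SE, 95% interval -0.64 to 0.08, edgeR p = 0.123, adjusted p = 1, two-sided exact permutation p = 0.321). For Or161 the lowest, median and highest pools had 0.400, 1.33 and 1.86 CPM in the five-foundress group, against 0.586, 1.48 and 3.04 CPM in the single-foundress group, a log2 fold change of -0.48 ± 0.35 (edgeR p = 0.176, adjusted p = 1, exact permutation p = 0.335). Or225, at 6.18 counts per library on average, had 0, 0.121 and 0.488 CPM in five-foundress pools, against 0, 0.0867 and 0.210 CPM in single-foundress pools, and a log2 fold change of 0.70 ± 0.51 (edgeR p = 0.182, adjusted p = 1, exact permutation p = 0.426) that was 0.29 without five-foundress replicate 10.

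Between 10- and five-foundress pools, 2 of the 104 receptors had an unadjusted p below 0.05 in edgeR, against 1.81% of all genes. Both were higher in 10-foundress pools, as were 1.14% of all genes at that p. Or180 was one, with 0.165, 0.416 and 0.813 CPM as the lowest, median and highest 10-foundress pools, against 0.161, 0.234 and 0.433 CPM in five-foundress pools. Its ranges overlapped, and rested on an average of 11.6 counts per library. The log2 fold change was 0.68 ± 0.29 (95% interval 0.07 to 1.28, edgeR p = 0.0317, adjusted p = 1, two-sided exact permutation p = 0.0549), and it was 0.91 without five-foundress replicate 11 and 0.47 without 10-foundress replicate 17. Or266 was the other, with 0.525, 1.01 and 1.32 CPM in 10-foundress pools, against 0.282, 0.440 and 1.00 CPM in five-foundress pools. These ranges overlapped too, at 30.2 counts per library on average. The log2 fold change was 0.69 ± 0.32 (95% interval 0.03 to 1.36, edgeR p = 0.0425, adjusted p = 1, two-sided exact permutation p = 0.0210). For Or156, with the next smallest p, the pools had 0.264, 0.815 and 1.41 CPM in the 10-foundress group, against 0.117, 0.525 and 0.993 CPM in the five-foundress group, and a log2 fold change of 0.59 ± 0.34 (edgeR p = 0.0961, adjusted p = 1, exact permutation p = 0.144).

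As a group, 90 receptors had a fitted level above that of five-foundress pools in 10-foundress pools and 14 a level below it, with a median log2 fold change of 0.27, while 53.2% of all genes were higher, with a median of 0.01. The receptors varied together from pool to pool, so that the 104 values are not independent. With the summed receptors 2 to 150 as covariate, an alternative chosen after seeing the data, the median was 0.05, with 61 receptors higher and 43 lower. This covariate is of the same gene family, so a change shared by the family would be largely removed with it. In the fit with no covariate, the median of 0.27 became 0.14 without 10-foundress replicate 17 and 0.45 without five-foundress replicate 10. Receptors 1 to 150 had a like median of 0.26, with 88 higher and 18 lower, and the log2 fold change of Or1 was 0.32 ± 0.46 (edgeR adjusted p = 1).

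In 10- versus single-foundress pools, 0 receptors had an unadjusted p below 0.05 in edgeR, against 3.18% of all genes, while DESeq2 gave 1 (3.19% of all genes) and limma-voom 2 (14.1%). The fitted level was higher in 10-foundress pools for 78 receptors and lower for 25, with a median log2 fold change of 0.13, where 51.9% of all genes were higher. That median was -0.01 when single-foundress replicate 8 was left out and 0.29 when replicate 1 of that group was. Or276 again had the smallest p. Its lowest, median and highest 10-foundress pools had 3.37, 4.495 and 6.14 CPM, against 2.96, 6.25 and 8.46 CPM in single-foundress pools, so that the groups overlapped. The log2 fold change was -0.34 ± 0.17 (95% interval -0.69 to 0.01, edgeR p = 0.0533, adjusted p = 0.952), and the two-sided exact permutation p was 0.180. Or180 had a log2 fold change of 0.60 ± 0.30 (edgeR p = 0.0603, adjusted p = 0.952, exact permutation p = 0.120), with the 10-foundress pools given above against 0.148, 0.271 and 0.358 CPM in single-foundress pools, and this value was 0.39 without 10-foundress replicate 17. For Or288, with 0.479, 1.07 and 2.08 CPM in 10-foundress pools, against 0.130, 0.665 and 1.23 CPM in single-foundress pools, the log2 fold change was 0.73 ± 0.42 (edgeR p = 0.0955, adjusted p = 0.952, exact permutation p = 0.0979).

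For the receptors with most reads, the 95% intervals give the range of change that was compatible with the data of each receptor. They are intervals of single receptors, not adjusted for the number of receptors or comparisons, so they are not a joint bound. For Or217 the log2 fold change was -0.49 (95% interval -1.29 to 0.31) between five- and single-foundress pools, 0.34 (-0.43 to 1.12) between 10- and five-foundress pools and -0.14 (-0.91 to 0.63) between 10- and single-foundress pools. Or301, with the smallest spread, had the narrowest intervals, of -0.36 to 0.28, -0.22 to 0.40 and -0.26 to 0.36 in the same order. Over the 33 receptors with at least 100 counts the intervals reached from -1.37 to 0.93, from -0.71 to 1.47 and from -1.09 to 1.27. These do not cover receptors with fewer counts, such as Or283, with -0.25 to 1.87 between 10- and single-foundress pools. The overall test of foundress number gave 0 receptors with an unadjusted p below 0.05, against 1.96% of all genes, and Or180, Or276 and Or266 had the smallest p among the receptors, each with an adjusted p of 0.994 from edgeR.

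**Figure D5:**
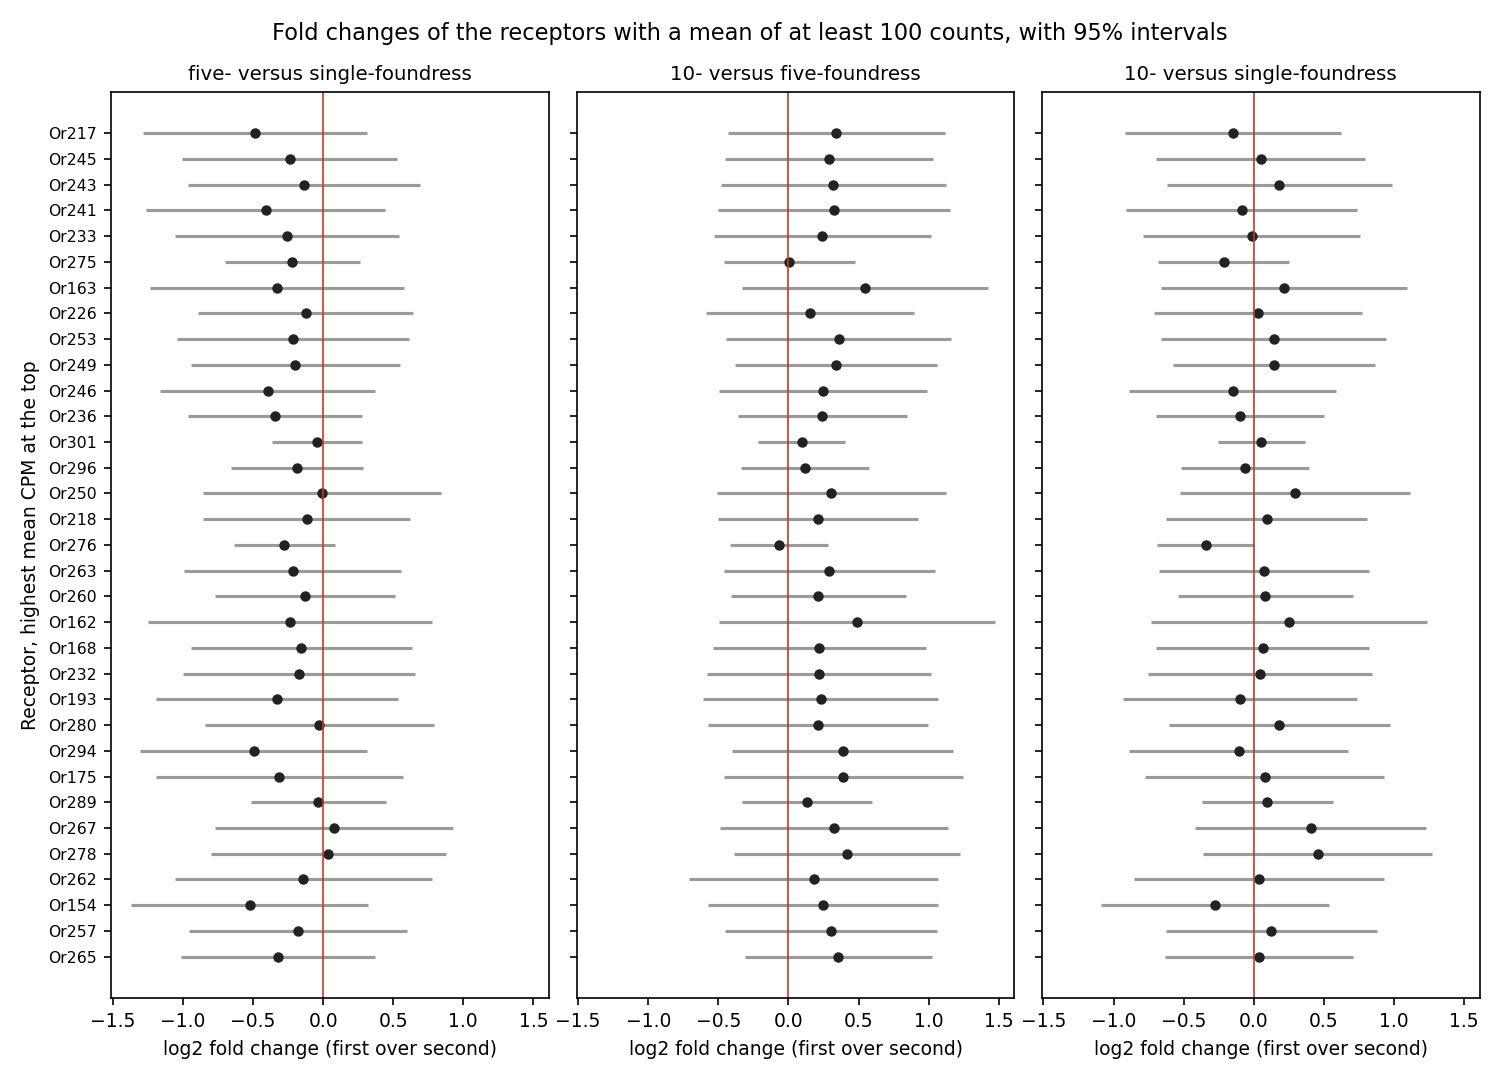
Log2 fold changes from edgeR (points) with 95% intervals (lines) for the 33 receptors with a mean of at least 100 counts in the 3 comparisons, the group with more foundresses over the other. Each interval includes 0, and that of Or276 between 10- and single-foundress pools, from -0.69 to 0.01, does so by the least.

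Genes of related function gave the same result. By edgeR with Benjamini-Hochberg adjustment, 0 of the 107 tested receptors numbered 1 to 150 and 0 of 44 gustatory receptors passed an adjusted p of 0.05 in any pairwise comparison. The same held for 0 of the 3 odorant binding proteins with an OBP symbol and 0 of 12 nicotinic receptors. At an unadjusted p below 0.05, 2 receptors numbered 1 to 150 were found in the 10- versus five- and 2 in the 10- versus single-foundress comparison, 1 in each direction, and gustatory receptors gave 1 and 2. Of all genes, 1.81% and 3.18% were below that p in these comparisons. The lowest, median and highest pools had 14.3, 66.7 and 128 CPM of Or1 in the single-foundress group, 27.0, 72.0 and 260 CPM in the five-foundress group and 61.8, 125 and 271 CPM in the 10-foundress group, and between 10- and single-foundress pools its log2 fold change was 0.90 ± 0.46 (edgeR adjusted p = 0.952).

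Single-foundress replicate 2, the pool left out, lay within the range of its group for most receptors. Scaled with all 23 libraries, its receptors above 150 summed to 292 CPM, against 87.4 to 526.2 CPM (median 314 CPM) in the other single-foundress pools. Of the 94 receptors with a mean of at least 10 counts, 6 lay above and 1 below the range of the other single-foundress pools, and the median ratio to the median of those pools was 1.06. Or268 (ratio of 2.22) and Or298 (0.343) were the farthest from it that the range of the others still held. Or180 (0.465) was the one below that range, with 0.127 CPM against 0.147 to 0.364 CPM.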

How the data were processed

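RNA-seq libraries were made from 23 pools of 12 female heads, grouped by foundress number as labelled. The authors deposited whole-number counts of reads per gene, not normalized. To make them, the authors filtered reads on mean quality, trimmed adapters (cutadapt 1.8.3), aligned the reads to assembly Nvit 2.1 (TopHat2 2.0.14) and counted them per gene in union mode (HTSeq, version 6.0.1 as given), which leaves out ambiguous reads. Whether strand was used is not given in the sources used here, so that counts of overlapping genes are uncertain. The 22 library totals lay between 25194329 and 69696501, and intervals for single counts cover counting error only.

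Genes with at least 1 read (13599) were fitted with the quasi-likelihood test of edgeR 4.0.16 (R 4.3.3, TMM scaling, all 22 libraries, no covariate), with Benjamini-Hochberg adjustment over all genes. Standard errors were taken as the size of the log2 fold change over the root of the F statistic. Log2 CPM for correlations and exact tests used a prior count of 2. DESeq2 1.42.0, limma 3.58.1 (voom, sample quality weights), other scaling, filters, covariates and libraries left out were the alternatives. The edgeR, DESeq2 and limma fits and the correlation were tested on simulated data. Receptors were named if they had 1 of the 10 highest mean CPM, 1 of the 3 smallest p of a test, 1 of the 3 largest or smallest CVs among those with a mean of at least 100 counts, reads in fewer than 11 libraries, or 1 of the 3 largest ratios in single-foundress replicate 2. Or1 and Lop1 were named beside them, and members of clusters by their place. The members and the lists of genes were chosen with earlier results of these data known. Lists of ionotropic receptors, chemosensory proteins and sensory neuron membrane proteins matched 0 symbols of the table and were not analysed here.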

Additional observations from a re-analysis of the deposited data

Results flagged for a closer look

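In 8 of the 93 combinations of a measured level and a foundress group examined, the highest or lowest pool stood far from the other pools of its group. All 8 were of named receptors, but the 93 were not limited to these. A rate of about 1 in 20 holds for normally distributed values, and not for receptors with few reads. There, a pool with reads is always flagged if the other pools of its group are at 0. Or217 and Or301 had been named in part for their CV, so the 8 cannot be set against that rate. Or217 had 43.35 CPM in 10-foundress replicate 17, against 11.2 to 23.7 CPM in the other 10-foundress pools, and this pool also had the highest summed receptor level of its group, 489 CPM, and the highest summed odorant binding proteins, 98.4 CPM. Or301 had 4.583 CPM in 10-foundress replicate 24, below the 5.99 to 7.14 CPM of the others, although the summed receptors of that pool were at 321 CPM.

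The other 6 rest on few reads. Or180 had 0.4332 CPM in five-foundress replicate 11, against 0.161 to 0.264 CPM in the others of the group. Or183 had 0.09762 CPM in single-foundress replicate 8 (others up to 0.0341 CPM), 0.0465 CPM in five-foundress replicate 10 (others up to 0.0181 CPM) and 0.02567 CPM in 10-foundress replicate 21 (others at 0). Or299 had 0.07702 CPM, from 3 reads, in 10-foundress replicate 21, against up to 0.0228 CPM in the others. Or181 had its only read in five-foundress replicate 11, at 0.01805 CPM.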

How the results depend on the processing

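Under 33 other settings, 22 of which left out 1 library each, 0 receptors passed an adjusted p of 0.05 in any comparison. Of all genes, 39 (10- versus single-foundress) and 77 (overall) passed with all 23 libraries, 3 with limma-voom and 1 without single-foundress replicate 3 (both 10- versus single-foundress, the last also overall). The smallest adjusted p of a receptor was 0.315 (Or188, limma-voom, 10- versus single-foundress). The number with an unadjusted p below 0.05 did change, and 2 medians changed sign. In five- versus single-foundress pools it was 7 with the summed receptors 1 to 150 as covariate (2.25% of all genes), all lower in five-foundress pools, and 4 with receptors 2 to 150 (2.63%), all higher. With 10- versus five-foundress pools it was 6 with limma-voom (7.49%), 3 with receptors 1 to 150 (3.79%) or 2 to 150 (3.65%) as covariate and 1 when only the 2 groups were fitted (1.72%). Between 10- and single-foundress pools it was 1 with DESeq2 size factors (3.16%), with the filterByExpr low-count filter (2.76%), with all 23 libraries (5.47%) and with DESeq2 (3.19%), 2 with limma-voom (14.1%), 9 with receptors 1 to 150 as covariate (5.33%), all lower in 10-foundress pools, and 11 with receptors 2 to 150 (4.79%), 10 of them higher in 10-foundress pools. Overall it was 1 with all 23 libraries (4.01%), limma-voom (8.02%), edgeR's earlier quasi-likelihood form (1.96%) and a numeric trend (3.57%), 3 with receptors 1 to 150 (3.51%) and 6 with receptors 2 to 150 (3.47%) as covariate. With each library left out in turn it ranged from 0 to 1, 0 to 3, 0 to 2 and 0 to 1. The 2 receptors of the 10- versus five-foundress comparison became 0 without five-foundress replicates 12 or 15 or 10-foundress replicate 17. The count was 1 without 12 of the other libraries.

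The median log2 fold change between five- and single-foundress pools (-0.14) was 0.054 with receptors 2 to 150 as covariate, and ranged from -0.30 to 0.060, the last without single-foundress replicate 1. Between 10- and single-foundress pools (0.13) it was -0.087 with limma-voom and -0.12 with receptors 1 to 150 as covariate, which include Or1, and ranged from -0.013 (without single-foundress replicate 8) to 0.29. Between 10- and five-foundress pools (0.27) it ranged from 0.14 to 0.45 with a library left out, but was 0.03 (59 receptors higher, 45 lower) with receptors 1 to 150 and 0.05 (61 higher, 43 lower) with receptors 2 to 150 as covariate. Both covariates are of the same gene family, so a change shared by the family would be largely removed with them. The cause was not tested. The direction of the receptors as a group thus depends on single pools in 2 of the 3 comparisons. The median CV of the 33 receptors, 49.1%, became 22.3% on division by receptors 2 to 150. The covariate of receptors 2 to 150, this division and the leaving out of libraries other than 10-foundress replicate 17 were chosen after seeing the data. No paired analysis was possible because the groups share no replicate numbers. Receptors under 10 counts per library (11 of 105) give no firm fold change.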
